A study of Drosophila melanogaster with 4 samples.

Results

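Distal-less (Dll) binding was examined at 10 genes that build the sensory organs of the fly: the proneural genes ac, sc, l(1)sc, ase, ato and amos, the zinc finger genes sens and scrt, and the selector genes Poxn and ct. A gene was given every peak summit whose nearest protein-coding transcription start site was its own, and every summit within its body or the 2000 bp upstream. The rule that picked them used their known function and no peak value, although earlier results of these data were known when they were chosen. They are 10 of 13968 protein-coding genes of the Ensembl annotation.

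The chromatin came from whole Drosophila melanogaster embryos of the strain Dll-GFP, collected from 0 to 24 h. The flies are transgenic and express a fusion protein of Dll with enhanced GFP. ChIP-seq (sequencing of DNA co-precipitated with a protein) used an antibody against GFP on chromatin sonicated to 200 to 800 bp. The 4 biological replicates form 1 group, so no condition was compared with another and no test between groups was possible. Whole embryos mix all tissues and ages of that window, so a peak does not tell which cells hold it, and fewer bound cells cannot be told apart from weaker binding per cell.

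Proneural genes encode basic helix-loop-helix (bHLH) factors that pair with Daughterless on E-boxes and give clusters of ectodermal cells the ability to become neural. Notch signalling then leaves the neural fate to a single precursor, in which Senseless (sens) keeps proneural activity high. Selectors such as Pox neuro (Poxn) and Cut (ct) then separate the kinds of organ, and Dll itself is a homeodomain factor of ventral appendages and of the sense organs on them.

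Of the 10 genes, only scrt and Poxn held a summit in the conservative list, so named by the submitters and derived from the alignments of all 4 replicates. Under the same rule 40.0% of all protein-coding genes held one, and 32.8% of the 4564 genes whose stretch of nearest DNA was as long as that of the 10 genes (7.07 to 66.3 kb) did. Both summits lay at the promoter, 280 bp upstream of scrt and 69 bp upstream of Poxn, and 31.1% of all genes had a conservative summit there. A promoter summit of ct passed in 2 of the 7 thresholded lists built from all replicates, so 3 of the 10 genes were in at least 1 of these lists, beside 47.7% of all genes. A summit of ato passed only in the thresholded list of replicate 1. The remaining 6 genes, ac, sc, l(1)sc, ase, amos and sens, had ranked candidates only: rows of the unfiltered ranked lists that missed the authors' threshold.

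The sequences below come from summits of scrt, ct, ato and sens that the results describe, and the Poxn window is not shown here. For ato coding, ct intron and sens upstream, they are the best pooled candidates, which missed the threshold. All were read from the RefSeq genome of Drosophila release 6, the same assembly as dm6, on the strand of the gene. Capitals mark matches to any of 8 short motifs other than CANNTG, on either strand. The first is the conservative scrt summit and its flanks, chr3L:3983516-3983716 on the plus strand, with the summit at base 101 and no capital letter.

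scrt promoter: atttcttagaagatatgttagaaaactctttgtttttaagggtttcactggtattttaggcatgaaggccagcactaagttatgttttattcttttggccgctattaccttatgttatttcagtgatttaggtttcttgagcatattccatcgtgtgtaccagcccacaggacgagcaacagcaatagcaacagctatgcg

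The pair from ct shows an intronic stretch, chrX:7627097-7627297, and the promoter stretch, chrX:7608072-7608272, both on the plus strand. The intronic stretch holds the summit of the best candidate of the pooled ranked list, with GAGAG repeats and a CAGCTG E-box to the left of the summit. The promoter stretch surrounds the summit that passed in 2 pooled lists, and it was added after its values were seen.

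ct intron: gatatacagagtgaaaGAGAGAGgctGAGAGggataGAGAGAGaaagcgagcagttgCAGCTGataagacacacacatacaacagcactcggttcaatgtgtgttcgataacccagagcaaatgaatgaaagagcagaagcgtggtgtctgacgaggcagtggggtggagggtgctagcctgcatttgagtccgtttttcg
ct promoter: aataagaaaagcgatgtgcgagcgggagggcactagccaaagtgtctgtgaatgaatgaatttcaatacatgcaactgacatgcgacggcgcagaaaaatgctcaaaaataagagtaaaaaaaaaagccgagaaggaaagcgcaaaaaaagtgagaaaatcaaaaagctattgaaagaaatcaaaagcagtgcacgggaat

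For ato, the promoter stretch around the peak of replicate 1, chr3R:8277740-8277940, was also added after its values were seen, and the coding stretch, chr3R:8278126-8278246, lies under the best pooled candidate. Both are on the plus strand, and 74 untranslated bases were left out of the latter.

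ato promoter: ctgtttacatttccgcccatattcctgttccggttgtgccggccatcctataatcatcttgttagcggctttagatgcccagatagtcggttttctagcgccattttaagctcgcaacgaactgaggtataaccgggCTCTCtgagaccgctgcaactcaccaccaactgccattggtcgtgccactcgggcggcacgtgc
ato coding: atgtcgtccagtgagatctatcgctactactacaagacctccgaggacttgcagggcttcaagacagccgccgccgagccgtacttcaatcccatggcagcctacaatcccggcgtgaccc

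For sens, the best pooled candidate lay 4794 bp upstream of the gene, at chr3L:13405819-13406019 on the minus strand.

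sens upstream: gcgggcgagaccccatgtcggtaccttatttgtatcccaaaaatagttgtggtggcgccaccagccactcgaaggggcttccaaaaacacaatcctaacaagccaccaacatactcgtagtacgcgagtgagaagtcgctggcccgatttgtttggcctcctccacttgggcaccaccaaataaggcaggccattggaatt

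The ranked lists held 43859, 39011, 44390 and 39755 candidates in replicates 1 to 4, and the thresholded lists held 3609, 3610, 2523 and 2884. The conservative list held 5203. A candidate's strength is given as its rank by the authors' peak signal, as a percentage of its own list counted from the strongest, since signals cannot be compared between lists. The global IDR (irreproducible discovery rate) is the authors' deposited measure of how poorly a peak repeats, low where it repeats well, and their thresholded lists stop at 0.01. It does not always follow the rank by signal used here: a ct candidate of replicate 3 stood at 11.5% with a global IDR of 0.814. A scrt candidate of replicate 1 stood at 72.5% with 0.00106. That candidate overlapped the strong scrt peak of replicate 1, which stood at 5.16% with a global IDR of 0.00107. Read depth is unknown, because peak lists hold no read counts.

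Scratch (scrt), a Snail-family zinc finger protein of the embryonic nervous system, had the strongest peak of the 10 genes. The scrt gene (FBgn0004880) lies on 3L from 3983896 to 3994003. Its peak in the conservative list ran from 3983462 to 3983737, at rank 1943 of 5203, or 37.3%. In the ranked lists the best scrt candidate stood at 5.16%, 4.97%, 6.54% and 5.03% in replicates 1 to 4, or 5.43% ± 0.747 (SD, n = 4). The 4 summits lay 252, 285, 229 and 261 bp upstream, within 56 bp of each other, so all replicates placed the peak at the same promoter stretch. Its global IDR was 0.00107, 0.00244, 0.0671 and 0.00168, which kept scrt in the thresholded lists of replicates 1, 2 and 4 and left it out of that of replicate 3. Replicate 1 listed a further scrt summit 44 bp upstream in its thresholded list, at 98.0% of that list. All 7 thresholded lists from all replicates held scrt, at 31.2% to 47.9%. Of all genes 30.0% were in all 7. These lists are not 7 separate observations, since the same scrt summit stood at rank 1989 in each of the 7 ranked lists from all replicates.

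**Figure D1:**
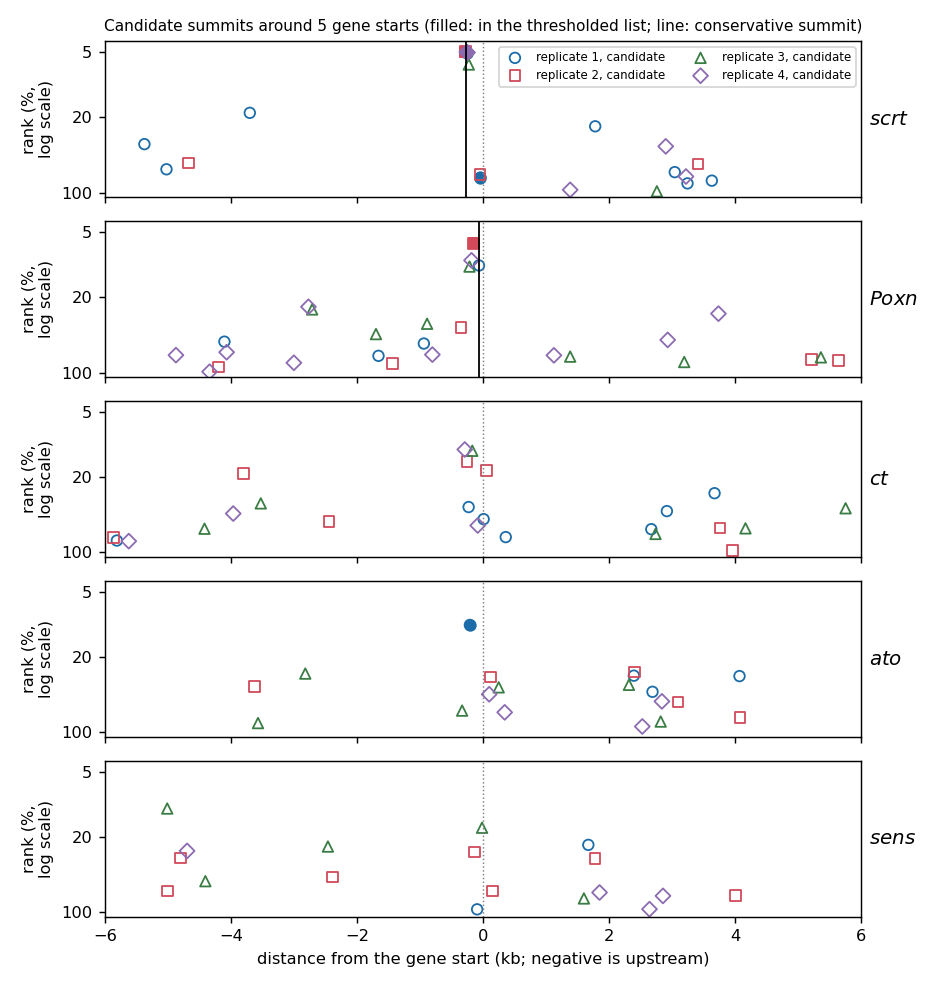
Candidate summits of each replicate (symbols) by distance from the gene start in kb and by rank in the ranked list in percent on a log axis, within 6 kb of scrt, Poxn, ct, ato and sens. Filled symbols passed the authors' threshold and vertical lines are conservative summits. In scrt, Poxn and ct all 4 replicates have a symbol just upstream of the start, within 56, 150 and 119 bp, and in sens replicates 1, 2 and 3 do.

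Poxn, a paired-domain selector that gives a sensory organ its chemosensory rather than mechanosensory character, came next. The gene (FBgn0003130) lies on 2R from 15826693 to 15835055 on the minus strand, inside the longer gene tun. The Poxn peak of the conservative list stood at rank 3191 of 5203, or 61.3%. Its best ranked candidate was at 10.2%, 6.39%, 10.5% and 9.18% in replicates 1 to 4, or 9.08% ± 1.88 (SD, n = 4). The summits lay 68, 152, 218 and 186 bp upstream, a span of 150 bp. The global IDR of these promoter candidates was 0.0226, 0.00271, 0.678 and 0.0875, so only replicate 2 passed. Poxn was nevertheless in all 7 thresholded lists from all replicates, at 52.7% to 71.3%. They are not 7 separate observations of Poxn. The same summit 69 bp upstream stood at rank 3398 to 3402 in each of the 7 ranked lists from all replicates.

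Cut (ct), a homeodomain protein that sets external sensory organs apart from internal ones, had promoter candidates in every replicate but no conservative summit. The gene (FBgn0004198) covers 70432 bp of the X chromosome from 7608428 to 7678859, and it had 25 to 29 candidates per replicate, the most of the 10 genes. At the promoter they stood at 38.0%, 14.5%, 11.5% and 11.2% in replicates 1 to 4, 232, 257, 174 and 293 bp upstream. Replicate 1 was thus weaker there than the others. The promoter candidate of replicate 2 had a global IDR of 0.0111, just outside the threshold, and the others had 0.395, 0.814 and 0.182.

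In replicates 1 and 2 the best ct candidate was intronic instead, at 24.2% and 11.3%. All 4 replicates had a candidate near the intronic stretch shown above, with summits 4981, 5025, 5022 and 4915 bp upstream of an internal start site of ct. It stood at 30.3%, 11.3%, 12.9% and 40.0% in replicates 1 to 4. The best summits of ct therefore spread over 21246 bp across replicates. In the lists from all replicates, the promoter summit 256 bp upstream passed in those of 6220 and 4781 peaks, at 82.7% and 84.0%. The nearest conservative summit was 89876 bp away, at Hira.

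Atonal (ato), the proneural factor of chordotonal organs and photoreceptors, passed the threshold in replicate 1 only. The gene (FBgn0010433) lies on 3R from 8278052 to 8279274. The replicate 1 peak, 212 bp upstream, had a score of 831 where the list stops at 830, a global IDR of 0.00993, and rank 3212 of 3609. The best ato candidate stood at 10.2%, 27.7%, 28.6% and 44.4% in replicates 1 to 4, or 27.7% ± 14.0 (SD, n = 4). The strongest place differed between replicates: 212 bp upstream, 2401 bp downstream, 2823 bp upstream and 94 bp downstream of the start. The promoter candidates of ato in replicates 1, 3 and 4 overlapped a candidate of each other replicate. No thresholded list from all replicates held ato, and its lowest global IDR in the 7 ranked lists from all replicates ranged from 0.0369 to 0.395.

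Senseless (sens), the zinc finger protein that acts with proneural factors in the precursor, came closest to the threshold among the genes with ranked candidates only. The gene (FBgn0002573) lies on 3L from 13396228 to 13401125 on the minus strand. Its best candidate stood at 23.8%, 27.6%, 11.0% and 27.1% in replicates 1 to 4, or 22.4% ± 7.78 (SD, n = 4). Replicate 3 was the highest, with a candidate 5013 bp upstream at a global IDR of 0.0835. In replicates 2, 3 and 4 candidates clustered upstream of sens: 4800 and 5012 bp in replicate 2, 4408 and 5013 bp in replicate 3 and 4698 bp in replicate 4. Replicate 1 listed no candidate there. Only the candidate inside the gene, 1667, 1771, 1597 and 1845 bp past the start, appeared in all 4 replicates, at 23.8%, 31.9%, 74.4% and 65.6%. The sens promoter itself had a candidate in replicates 1, 2 and 3, at 93.9%, 27.6% and 16.5%.

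Amos, the proneural factor of olfactory sensilla and relative of ato, had the fewest candidates, 1 or 2 per replicate. The gene (FBgn0003270) lies on 2L from 18596136 to 18596921 on the minus strand. Its best candidate stood at 64.3%, 65.8%, 39.6% and 60.9%, or 57.7% ± 12.2 (SD, n = 4). None lay at its promoter in any replicate. The nearest conservative summit, at CG15160, was 5878 bp from the amos start.

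**Figure D2:**
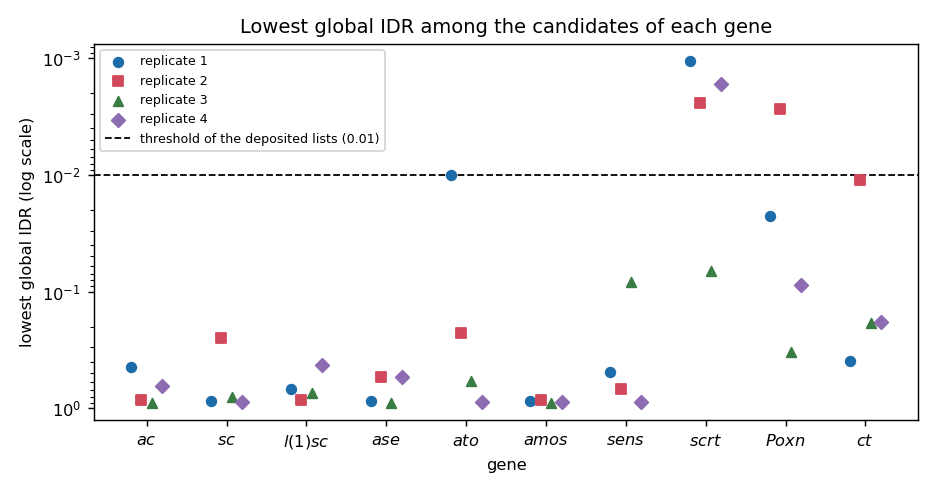
Lowest global IDR among the candidates of each gene in each replicate (symbols), on a log axis with low values at the top; the dashed line is the authors' threshold of 0.01. Only scrt in 3 replicates, Poxn in replicate 2 and ato in replicate 1 lie past it, and ct in replicate 2 lies just short of it at 0.0111.

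The 4 genes of the achaete-scute complex, ac, sc, l(1)sc and ase, stand in a row on the X chromosome, and all lie within the annotated span of CG32816. The first 3 make neural precursors competent, and ase acts in the precursors and neuroblasts themselves. On the plus strand, ac (FBgn0000022) starts at 370031, sc (FBgn0004170) at 396060, l(1)sc (FBgn0002561) at 409721 and ase (FBgn0000137) at 460747. None of them held a summit in any thresholded list. All shared a single gap of 197 kb between neighbouring conservative summits, from one at ewg (position 279599, 35 bp from a start site) to one at ebo (position 476626, 47 bp from a start site). Of 5197 such gaps in the genome, 82 were at least as long, and the median was 5.56 kb. A gene start falls more often in a long gap. The median gap around a gene start was 39.8 kb over all genes and 143 kb over the 10 genes. Candidates in the 197 kb gap did exist in each replicate, as the map of the complex shows.

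The best candidate of ac stood at 27.7%, 62.3%, 77.4% and 36.5% in replicates 1 to 4, or 51.0% ± 22.9 (SD, n = 4). That of sc stood at 39.6%, 25.6%, 30.1% and 63.1%, or 39.6% ± 16.7. That of l(1)sc stood at 56.2%, 55.4%, 48.4% and 86.0%, or 61.5% ± 16.7. For these genes the 4 replicates did not all place the best summit at the same site. The spans were 15062 bp for ac, 9965 bp for sc and 6172 bp for l(1)sc. The best candidates of replicates 3 and 4 did overlap for sc, 6512 and 6132 bp past the start, and for l(1)sc, at 5873 and 5889 bp. The best candidate of ase stood at 59.8%, 51.5%, 41.8% and 27.9%, or 45.3% ± 13.7. In replicates 2, 3 and 4 the best ase candidate lay at nearly the same place, 3734, 3605 and 3638 bp past the start, in an intron of CG32816. Promoter candidates were scattered: ac had one in replicate 1 (37.7%), sc in replicates 2 and 3 (25.6% and 81.8%), l(1)sc in replicate 1 (56.2%) and ase in replicate 4 (30.3%). An ac candidate upstream of the gene recurred in all replicates, with summits at 3554, 3568 and 3608 bp in replicates 1 to 3 and at 3254 bp in replicate 4, at 53.5%, 68.5%, 77.4% and 47.8%.

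**Figure D3:**
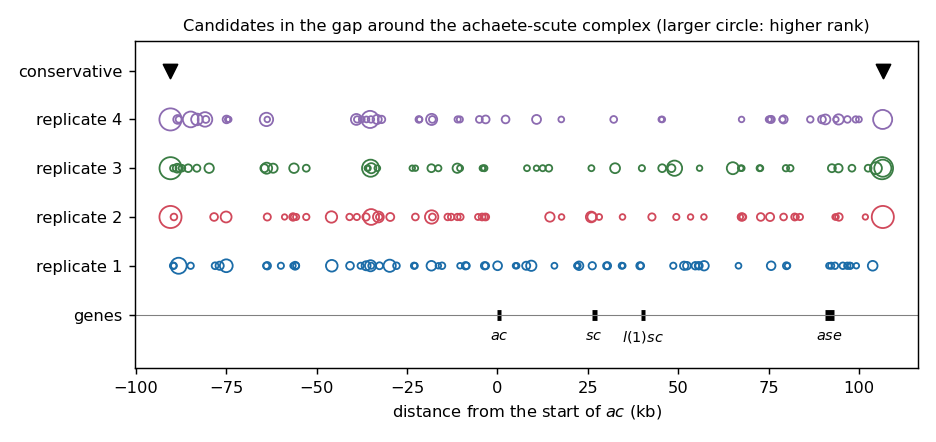
Candidate summits of each replicate (circles, larger for a higher rank) and conservative summits (triangles) by distance in kb from the start of ac, with the 4 genes of the complex as bars. Conservative summits stand only at the edges of the 197 kb gap, and candidates of all 4 replicates lie between them.

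Between the start of ac and the end of ase, a stretch of 93.1 kb, replicates 1 to 4 listed 29, 19, 19 and 15 candidates. That is 2.20 ± 0.641 per 10 kb (SD, n = 4), beside 2.98 ± 0.227 per 10 kb over the whole X chromosome. The lowest value lay in replicate 4, at 1.61, and replicate 1 was close to the X average at 3.11. None of the 82 candidates overlapped a candidate of all 3 other replicates. Of all candidates, 36.3%, 40.4%, 31.5% and 37.3% did in replicates 1 to 4. Candidates of neighbouring or shared sites are not independent, so the count of 0 sets no limit on the share and is a description only. The median candidate of the stretch stood at 59.8%, 65.6%, 76.2% and 64.7%, so most were weak, and the part of strength was not tested. The stretch also leaves out the ac candidates upstream of its edge. Of all ac candidates, 2 of 7, 2 of 4, 1 of 6 and 1 of 4 overlapped all 3 others, all of them upstream. The count of 0 in the stretch changed when a replicate was left out and overlap with both others was asked. It became 6 of 53, 0 of 63, 4 of 63 and 4 of 67 without replicates 1, 2, 3 and 4. All candidates together gave 41.6% to 47.5% in the same counts. The lowest global IDR in the stretch was 0.244, 0.247, 0.337 and 0.423. Its best candidate in replicate 3, at 12.6%, lay nearest to a start site of CG32816, 9247 bp away, and so belongs to none of the 4 genes.

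**Figure D4:**
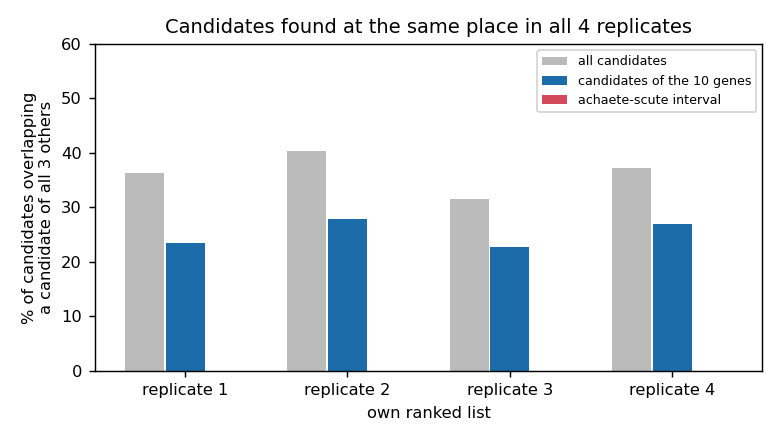
Percentage of the candidates in each replicate's ranked list that overlap, by at least 1 bp, a candidate in all 3 other lists, for all candidates, those of the 10 genes, and those between ac and ase. All candidates reach 31.5% to 40.4%, the 10 genes 22.7% to 27.9%, and the achaete-scute interval 0 in each list. The interval starts at ac and leaves out recurrent ac candidates upstream, and most of its candidates rank in the weaker part of their list.

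Over the 10 genes together, every gene had a candidate in all 4 ranked lists, as did 71.6% of all protein-coding genes, so this count does not set them apart. A candidate at the promoter was found in 7, 5, 6 and 5 of the 10 genes in replicates 1 to 4, beside 54.4%, 54.2%, 53.5% and 52.3% of all genes. In all 4 replicates it was found for 3 of 10, scrt, Poxn and ct, beside 38.9% of all genes. In at least 1 thresholded list of a replicate, 3 of 10 genes had a summit (ato, scrt and Poxn) beside 38.5% of all genes, and in at least 2 such lists 1 did (scrt) beside 31.3%. By replicate the counts were 2, 2, 0 and 1 of 10, beside 32.1%, 33.1%, 25.3% and 27.8% of all genes. The best candidate of each gene was averaged over replicates, and the median of these means was 33.7% for the 10 genes. It was 10.6% over the 10005 genes with a candidate in all lists. Over the 3537 such genes with a similar stretch of nearest DNA it was 14.8%. Within single replicates 1 to 4 the contrast was smaller. The medians were 25.9%, 27.7%, 29.4% and 32.2% for the 10 genes, beside 11.4%, 11.7%, 12.9% and 12.9% for all genes with a candidate. The order from the top was scrt, Poxn, ct, sens, ato, sc, ase, ac, amos and l(1)sc, and of neighbours in that order only Poxn and ct had ranges over replicates that did not overlap.

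**Figure D5:**
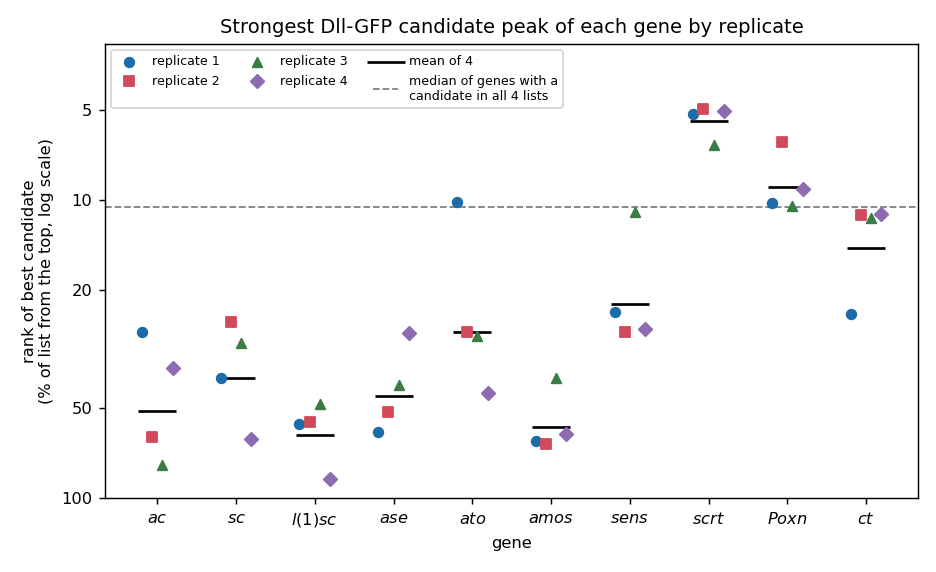
Rank of the best candidate of each gene in each replicate (symbols) and mean of 4 (bars), in percent of the list on a log axis with the strongest at the top, where the dashed line is the median of the 10005 genes with a candidate in all 4 lists, 10.6%. The 4 scrt values lie between 4.97% and 6.54%, and those of the 6 proneural genes spread from 10.2% to 86.0%.

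The best summits of all 4 replicates lay within 300 bp for scrt and Poxn, 2 of 10, beside 49.6% of the 10005 genes. The candidates of the 10 genes numbered 77, 68, 66 and 67 per replicate, and 23.4%, 27.9%, 22.7% and 26.9% of them overlapped a candidate of all 3 other replicates. The gene starts were also farther from conservative summits: the median distance was 13448 bp for the 10 genes and 4445 bp for all genes. The stretch nearest to a start was longer as well, with a median of 15.6 kb beside 4.25 kb. The part of this distance in the result was not tested beyond the comparison with genes of similar stretch given above.

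The letters under the summits were counted within 50 bp on each side, for the conservative summit of scrt and Poxn and for the best pooled candidate of the other 8. The homeodomain cores TAATTA and TAATTG were in none of the 10 windows, beside 7.23% and 9.13% of all conservative summits and 5.51% and 8.77% of all pooled candidates. The E-box CAGCTG was in 2 windows (ase and ct), beside 9.13% of conservative summits and 6.15% of candidates, and the general form CANNTG was in the same windows, beside 37.6% and 42.8%. CANNTG includes CAGCTG and CAGGTG, and CAGGTG was in no window, beside 3.27% and 4.71%. The GAGA factor letters GAGAG were in 3 windows (sc, l(1)sc and amos), beside 14.5% and 13.7%. The promoter motifs, TATCGATA of DREF and GGTCACAC of M1BP, were in none, beside 11.7% and 2.73% of conservative summits. Of all pooled candidates, the kind that 8 of the 10 windows hold, only 1.11% and 0.574% had them. With 10 windows these are descriptions only, and an absent match says only that the letters are not in that window. GC content was 34.7% under the scrt summit and 61.4% under the Poxn summit, beside 40.6% on average over conservative summits.

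The other genes of sensory organ formation were 23 in number, and 12 of them (52.2%) held a conservative summit, beside the 40.0% of all genes. In at least 1 thresholded list of a replicate 11 of the 23 had a summit, beside 38.5% of all genes. The best conservative summits of mirr, emc, phyl and insc were not seen in any replicate's thresholded list. The 23 were not compared with genes of similar stretch of nearest DNA. Among prepattern genes, which set where proneural clusters form, 2 of 5 did: mirr, 303 bp upstream at 72.9% of the conservative list, and ush, 117 bp past a start at 45.5%. All 3 genes of bHLH partners and antagonists did, each at its promoter. These were da, the partner of the proneural factors, 93 bp upstream at 61.4%, h, a repressor of ac, 115 bp upstream at 61.6%, and emc, which sequesters bHLH factors, 37 bp past the start at 65.2%. Thus da, h and emc stood near Poxn in the list and below scrt.

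Of the genes acting in Notch-driven selection, 3 of 4 held a conservative summit. The best, at rank 444 or 8.53%, lay inside neur, whose product activates Notch ligands, but at the promoter of hyx. That of chn, a zinc finger gene that promotes proneural activity, lay 194 bp upstream at 28.9%, and phyl, an adaptor for degradation of Tramtrack, had one in its 5' untranslated region at 80.1%. neur and chn were the 2 of 23 present in the thresholded lists of all 4 replicates, beside 21.9% of all genes. For asymmetric division 3 of 4 did: numb, the Notch inhibitor, at 42.2%, insc, which orients the spindle, at 94.7%, and pros, a homeodomain fate determinant, at 64.2%. The summit inside pros lay at the promoter of KP78a and KP78b, and that inside insc was nearest to another gene's start. Of the later identity genes 1 of 7 did, B-H2, 10186 bp past its start at 61.8%. Of the 23 genes, 22 had a candidate in all 4 replicates, and cato, named here after its values were seen, did not. The median best candidate of these 22 was at 10.4%, beside 10.6% over the 10005 genes with a candidate in all 4 lists.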

How the data were processed

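Per the labels, ChIP-seq with an antibody against GFP was made on 4 biological replicates of Dll-GFP embryos, which are 1 group. No aligner or peak caller was given in the sources used here. Control libraries were not analysed. The authors placed the peaks on dm6. The signal is the authors' deposited peak height, with a scaling that is not stated, and it was ranked within a list only. Scores are the scaled IDR that the authors deposited, at most 1000 and, in ranked lists, 125 times minus log2 of the global IDR, and thresholded lists stop at 830. The deposited −log10 column holds the authors' −log10 of the global IDR. The 22 lists used were a ranked and a thresholded list per replicate, and 7 of each derived from all replicates. Another 14 signal columns carry no sample name and were not used.

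Genes came from Ensembl release 115 (BDGP6.54), and h was matched by its older symbol. A summit belonged to a gene when its nearest protein-coding start was that gene's, or when it lay in the gene or within 2000 bp upstream. Promoters ran from 500 bp upstream to 100 bp downstream of any annotated start. Overlap meant at least 1 bp. Motif letters were sought on either strand, 50 bp to each side of a summit. Scripts used Python 3.11.15, NumPy 2.4.6, pandas 2.3.3 and matplotlib 3.10.9, and ownership and motif counts were checked on simulated data.

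The 10 genes, the other 23 genes and the motifs were chosen with earlier results of these data known. All 10 were described, and of the 23, the 12 with a conservative summit were named by rule, and cato after its values were seen. Overlap between ranked lists, the gap around the achaete-scute complex, the comparison by stretch of nearest DNA and 2 of the printed sequences were added after the values were seen. Alternatives were the other thresholded lists, other rules for owning a summit, stricter replicate support, each replicate left out and other motif windows. With 1 group, values are given as mean and SD over replicates, and no test was run. Precision rests on these replicates, since depth is unknown.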

Additional observations from a re-analysis of the deposited data

Results flagged for a closer look

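Of 22 groups of 4 replicate values, 4 held 1 replicate far from the others. This was measured as the gap to the nearest value over the whole range. Chance alone gives about 1 in 20 for independent groups of normally distributed values, which these ranks and counts need not be. The ct groups below share the values of replicates 3 and 4. The best scrt candidate of replicate 3 stood at 6.54%, against 4.97% to 5.16% in the other replicates. Replicate 1 had 11 scrt candidates, where the others had 4 or 5. The best ct candidate of replicate 1 stood at 24.2%, against 11.2% to 11.5%, and the ct promoter candidate of replicate 1 stood at 38.0%, against 11.2% to 14.5%.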

How the results depend on the processing

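No paired analysis was possible because the samples form 1 group. Of 131 alternative values, 113 stayed within 1.5 times the main count or within 1 SD, and 18 moved. This tally is no measure of robustness. Of the 131, 58 were mean ranks of single genes, judged by the gene's own SD over replicates, and 1 of them moved. Leaving out 1 of 4 replicates cannot move such a mean by 1 SD, and the nearest-start rule left these means unchanged. The 2 genes with a conservative summit became 1 (scrt) when overlap with at least 2 thresholded lists of replicates was required and 0 when all 4 were required, and the number of summits went from 2 to 1 and 0 with them. The number of summits was 4 in the thresholded lists of 6220 and of 4009 peaks. Genes in at least 1 thresholded list of a replicate fell from 3 to 1 when at least 2 lists were required. Genes with a candidate in all 4 ranked lists fell from 10 to 5 when only the body and 2000 bp upstream counted. The median best candidate, 33.7%, ranged from 27.0% without replicate 4 to 36.6% without replicate 1, and that of sens moved to 33.4% under the body rule. Promoter candidates alone, and the body rule, gave no median over the 10 genes, because not every gene has such a candidate in each list. At 25 bp, CAGCTG was in 0 windows, CANNTG in 1 and GAGAG in 1, and at 100 bp CANNTG was in 4. Candidates of the achaete-scute interval that overlap every other replicate, an alternative added after seeing the data, ranged from 0 to 6 with a replicate left out. The cause of these changes was not tested beyond what each rule itself removes. Depth is unknown, so a missing peak is not shown to be an absent one.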
